A study of Mus musculus with 24 samples.

Results

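Genes of the known response to oxygen shortage, here called hypoxia-inducible genes, were followed through the differentiation of C2C12 cells. C2C12 cells are mouse skeletal muscle myoblasts kept as an established line, which fuse into myotubes when serum is lowered. The genes are Hif1a, Vegfa, Bnip3, Egln1, Egln3, Ndrg1, Adm, P4ha1, Pdk1 and Ankrd37, chosen by symbol, and every probe set that the annotation of the array gives to them alone was used, 25 probe sets of 10 genes among 18194 genes. RNA was hybridised to 24 Affymetrix arrays, 3 for each of 8 time points. Day -1 holds undifferentiated myoblasts at 50% confluency, Day 0 holds myoblasts at 90% confluency, Day 0.25 is 6 hours into differentiation, and the other time points are Days 1 to 5. All cells were of the C2C12 line with no genetic change given, were grown in high glucose medium with 10% fetal bovine serum, and after induction had 2% serum by the labels, with the medium renewed every 2 days. The text of the paper gives another serum percentage, and neither source says on which days the medium was renewed or gives an oxygen level. Confluency, age of the medium and time in culture cannot be told apart between Day -1 and Day 0, nor can fresh medium, lowered serum and the 6 hours that passed between Day 0 and Day 0.25.

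Hypoxia-inducible factor (HIF) is a transcription factor with an oxygen-regulated subunit, encoded among others by Hif1a, that is made and destroyed continuously while oxygen is plentiful. The prolyl hydroxylases encoded by Egln1 and Egln3 use oxygen to mark that subunit for destruction, and both genes are themselves induced when it persists. The other genes carry out parts of the response. Vegfa and Adm encode secreted factors that act on vessels, Bnip3 a mitochondrial protein of mitophagy and cell death, and Pdk1 a kinase that inhibits pyruvate dehydrogenase. P4ha1 encodes a subunit of the enzyme that hydroxylates collagen, Ndrg1 a cytoplasmic stress-response protein and Ankrd37 an ankyrin repeat protein. Because the HIF subunit is controlled mainly at the protein level, the RNA of Hif1a is no measure of HIF activity.

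An intensity here is the deposited linear value of a probe set on an array, a level is the mean of the 3 arrays of a time point, and a change was called at an adjusted p under 0.05 in limma's moderated t on log2 intensities. A gene was read from its probe set with the highest mean over the 24 arrays. The trimmed mean of an array lay between 144.9 and 155.7, and Pearson's r between arrays of a time point lay between 0.962 and 0.996. All 10 muscle markers reached a level of 100, and their summed level went from 4203 on Day -1 to 15440 on Day 0 and 50140 on Day 5. None of 8 endothelial and none of 5 macrophage markers reached a level of 100, with summed levels of at most 17.0 and 16.4, and of 4 adipocyte markers Pparg alone did. Whether the 3 arrays of a time point stand for separate cultures is not given, so each p-value sets a difference against a spread that may be technical only. In bulk RNA fewer cells with a transcript and less of it per cell cannot be told apart.

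The promoters of 4 of the genes are shown because their RNA moved in different ways. Bnip3 and Vegfa rose into Day 0, fell by Day 0.25 and rose again later, Vegfa to above its Day 0 level. Bnip3 had levels of 820 on Day 0, 485 on Day 0.25 and 758, 800, 749 and 735 on Days 2 to 5. Its Day 3 arrays overlapped those of Day 0. Egln3 and P4ha1 rose during differentiation. Each run is the 250 bases before the RefSeq start (GRCm38.p6), 5′ to 3′ on the strand of the gene, and capitals mark the HIF core motif, ACGTG or GCGTG on either strand, so that the same motif on the opposite strand reads CACGT or CACGC. The positions are chr7:138909507-138909756 on the minus strand for Bnip3, chr17:46032378-46032627 on the minus strand for Vegfa, chr12:54203875-54204124 on the minus strand for Egln3 and chr10:59323046-59323295 on the plus strand for P4ha1.
Bnip3: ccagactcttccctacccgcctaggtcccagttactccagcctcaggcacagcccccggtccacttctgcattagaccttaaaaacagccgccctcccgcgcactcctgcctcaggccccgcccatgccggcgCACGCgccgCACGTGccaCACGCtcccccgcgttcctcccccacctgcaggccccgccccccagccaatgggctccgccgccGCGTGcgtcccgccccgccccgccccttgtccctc
Vegfa: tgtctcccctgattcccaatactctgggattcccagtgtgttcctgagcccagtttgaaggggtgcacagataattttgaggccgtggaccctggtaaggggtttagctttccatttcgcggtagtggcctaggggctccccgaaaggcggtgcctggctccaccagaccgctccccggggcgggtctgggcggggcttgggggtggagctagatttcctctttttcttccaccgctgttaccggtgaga
Egln3: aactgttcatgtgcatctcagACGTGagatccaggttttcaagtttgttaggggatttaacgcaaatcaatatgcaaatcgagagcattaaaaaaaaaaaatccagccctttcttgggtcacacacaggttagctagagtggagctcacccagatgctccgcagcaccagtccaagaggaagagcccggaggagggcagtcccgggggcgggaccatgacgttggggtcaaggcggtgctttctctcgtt
P4ha1: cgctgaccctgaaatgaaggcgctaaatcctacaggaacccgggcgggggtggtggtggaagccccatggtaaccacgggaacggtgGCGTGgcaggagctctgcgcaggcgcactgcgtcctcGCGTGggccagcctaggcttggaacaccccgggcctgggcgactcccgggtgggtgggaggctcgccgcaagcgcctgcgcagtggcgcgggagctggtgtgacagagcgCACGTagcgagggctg
The Bnip3 promoter held 5 matches, 2 of which are the strands of a single CACGTG that begins 108 bases before the start on the opposite strand and 107 on the gene's own. The P4ha1 promoter held 3, at 163, 126 and 16 bases before the start, and the Egln3 promoter held 1, at 229. This Vegfa promoter had no match, while the table's second Vegfa start, further along the gene, had 2. RefSeq promoters were found for 9 of the 10 genes, with 11 starts, of which 9 had a match in the 300 bases from 250 before to 50 after the start. Ndrg1 was not matched. Of all 32851 promoters of that length in the table, 43.8% held the motif, 19.6% held ACGTG and 7.15% held CACGTG, which contains ACGTG on both strands. A match describes the letters in the window and says nothing of binding.

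Of the 25 probe sets, 20 of 8 genes reached a level of 100 at 1 or more time points and were tested. The 5 left out were both probe sets of Adm, the only probe set of Ankrd37 and a near-background probe set each of Hif1a and Pdk1. A probe set of Egln3, 1418648_at, passed this filter through its levels from Day 1 onward. Over the 8 time points, 7 of the 8 tested genes changed by the moderated F test, where 89.4% of all 7909 genes tested did. The exception was Hif1a (adjusted p = 0.592).

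Between 50% and 90% confluency, the stress-response gene Ndrg1, the vascular growth factor gene Vegfa and the mitophagy gene Bnip3 rose, and the hydroxylase genes Egln1 and Egln3 fell slightly. Ndrg1 (1456174_x_at) read 1094, 1315 and 1315 on the 3 arrays of Day -1 and 2601, 2739 and 2614 on those of Day 0. It rose 2.14-fold (log2 1.10 ± 0.17 SE, adjusted p = 2.71e-05), with no overlap of the groups. Vegfa (1420909_at) read 290, 314 and 233 on Day -1 and 388, 413 and 464 on Day 0. The lowest Day 0 array lay above the highest Day -1 array, a rise of 1.52-fold (log2 0.60 ± 0.11, adjusted p = 0.00023). Bnip3 (1422470_at) went from 597, 516 and 635 to 842, 820 and 799, or 1.41-fold (log2 0.50 ± 0.10, adjusted p = 0.000439). All of its Day 0 arrays lay above those of Day -1. In all, 3 of the 8 tested genes were higher and 2 lower, while 46.8% of all genes changed, 25.2% upward and 21.5% downward. A median log2 change of 0.02 over the 8 genes equals that over all genes, 0.02.

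At 6 hours of differentiation all 3 had fallen, and Egln3 rose. Ndrg1 read 1113, 799 and 1158 on Day 0.25, less than on any Day 0 array, and fell 2.62-fold (log2 -1.39 ± 0.17, adjusted p = 2.44e-06). Vegfa read 210, 196 and 201, its lowest level of the time course, and fell 2.08-fold (log2 -1.06 ± 0.11, adjusted p = 5.21e-07). Bnip3 read 488, 512 and 456 and fell 1.69-fold (log2 -0.76 ± 0.10, adjusted p = 6.43e-06). All arrays of Day 0.25 lay below all of Day 0 for these genes. Egln3 (1418649_at) read 99.1, 117 and 90.8 on Day 0 and 178, 162 and 161 on Day 0.25, a rise of 1.64-fold (log2 0.71 ± 0.12, adjusted p = 0.000109). With linear in place of log2 values this Egln3 call was lost (adjusted p = 0.484). Of the 8 genes 1 was higher and 3 were lower, and of all genes 45.1% changed, 21.5% upward and 23.6% downward.

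**Figure D1:**
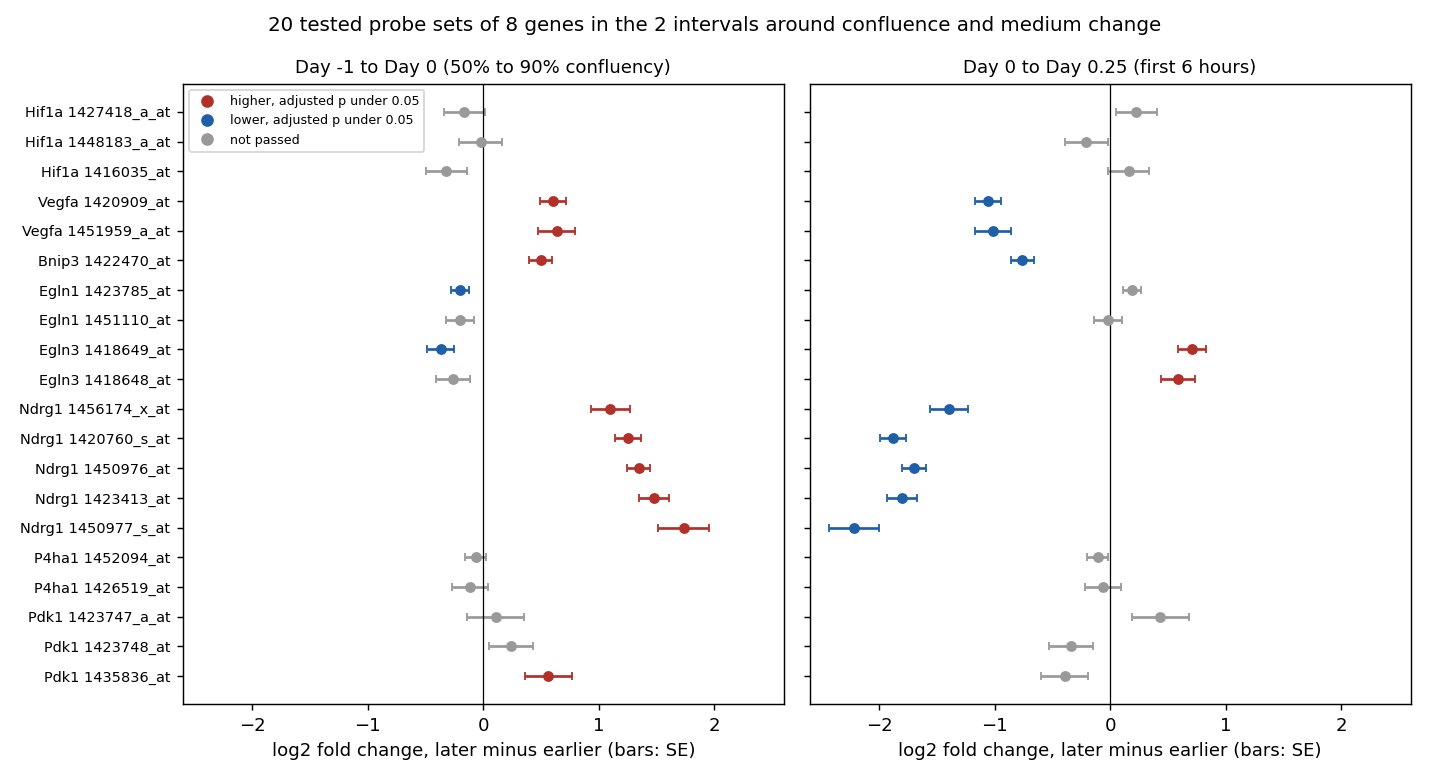
Log2 fold change with its SE (bars) of the 20 tested probe sets from Day -1 to Day 0 (left) and from Day 0 to Day 0.25 (right), red where higher and blue where lower at an adjusted p under 0.05. All 5 Ndrg1 probe sets, both of Vegfa and that of Bnip3 lie to the right on the left and to the left on the right, and these 2 panels share the Day 0 arrays.

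The 2 intervals share the Day 0 arrays, so Day 0 was also compared with the mean of Day -1 and Day 0.25. Ndrg1 stood 2.37-fold above that mean (log2 1.25 ± 0.14, adjusted p = 1.02e-06), Vegfa 1.78-fold (log2 0.83 ± 0.10, adjusted p = 1.12e-06) and Bnip3 1.55-fold (log2 0.63 ± 0.09, adjusted p = 7.27e-06). By size of this difference they ranked 273, 600 and 964 from the highest of 7909 genes. Egln3 stood 1.46-fold below it (log2 -0.54 ± 0.10, adjusted p = 0.000282) and Egln1 1.15-fold below it (log2 -0.20 ± 0.07, adjusted p = 0.0226). The Egln3 call was lost with linear values (adjusted p = 0.555), and that of Egln1 in a fit of those 9 arrays alone (0.0656) and without Day -1 replicate 2 (0.0522) or Day 0 replicate 1 (0.0584) or 2 (0.119). The other Egln1 probe set, 1451110_at, showed no dip on Day 0, with levels of 345, 299 and 295 on Day -1, Day 0 and Day 0.25. These 3 higher and 2 lower genes compare with 51.5% of all genes that differed, 27.0% upward and 24.5% downward, so being called is not particular to the set.

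Ndrg1 had the most probe sets, and they agreed in direction at both steps. Into Day 0 all 5 rose, by log2 1.10 to 1.73, and by Day 0.25 all 5 fell, by log2 -1.39 to -2.21. The widest swing was on 1450977_s_at, which read 294, 328 and 299 on Day -1, 866, 1108 and 1108 on Day 0, and 251, 155 and 274 on Day 0.25. Day 0 stood clear of the other 2 time points on each probe set, and r between the 8 log2 means of any pair of them lay between 0.950 and 0.998. After Day 0.25 the level of 1456174_x_at stayed between 1254 and 1421, and at Day 5 it did not differ from Day -1 by the test (log2 0.19 with a 95% interval of -0.15 to 0.54). The 5 probe sets were read from the same RNA on the same arrays and are not replicates.

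Among the regulators, Egln1 (1423785_at) read 411, 467 and 430 on Day -1 and 377, 359 and 398 on Day 0, all lower (log2 -0.21 ± 0.08, adjusted p = 0.0406). This call was lost in a fit of those 6 arrays alone (adjusted p = 0.12), with an intensity trend (adjusted p = 0.051) and without any of 4 single arrays (Day -1 replicates 2 and 3, Day 0 replicates 1 and 2, adjusted p 0.0686 to 0.174). Egln3 read 135, 122 and 138 on Day -1 and then fell to the Day 0 values above (log2 -0.37 ± 0.12, adjusted p = 0.0168), which did not pass without Day -1 replicate 3 (adjusted p = 0.0577), without Day 0 replicate 3 (0.0944) or with linear values (0.773). The step of both hydroxylase genes into confluence was thus small and rested on single arrays. Hif1a (1427418_a_at) read 3032, 4165 and 3637 on Day -1 and 3630, 2903 and 3095 on Day 0, which overlap (log2 -0.16, 95% interval -0.54 to 0.21). P4ha1 (1452094_at) differed by log2 -0.07 (interval -0.26 to 0.12) and Pdk1 (1423747_a_at) by log2 0.11 (interval -0.41 to 0.62), and neither passed on these probe sets. The Pdk1 probe set 1435836_at went from a level of 80.1 to 117, its lowest Day 0 array (108) above its highest Day -1 array (99.2). Against the mean of Day -1 and Day 0.25 it was higher on Day 0 (log2 0.48, adjusted p = 0.0295). On 1423748_at the Pdk1 level went from 144 to 170, with overlapping arrays.

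Other gene groups moved at the same steps, at which 46.8% and then 45.1% of all genes changed. The 11 measured proliferation genes summed to 29506 on Day -1, 16543 on Day 0 and 27748 on Day 0.25, 10 of them falling and then 6 rising. Rrm2, a ribonucleotide reductase subunit, fell by 1.16 on the log2 scale (adjusted p = 4.91e-07) and then rose by 1.28 (adjusted p = 1.97e-07). All 10 muscle markers rose from Day -1 to Day 0, with Acta1, skeletal actin, at log2 3.44 (adjusted p = 5.17e-14). Of 14 tested immediate early and serum response genes, 6 rose and 5 fell into Day 0, and 3 rose and 5 fell by Day 0.25. The transcription factor genes Egr1 and Atf3 stood higher on Day 0 than on Day -1 and Day 0.25. Their levels on Day -1, Day 0 and Day 0.25 were 415, 1558 and 775 for Egr1 and 368, 785 and 169 for Atf3. On Day 0.25 the level of Egr1 was above that of Day -1, and that of Atf3 was below it, as were those of Ndrg1 and Vegfa. The part of these groups in the Ndrg1, Vegfa and Bnip3 values was not tested.

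By Day 1 the fall had been partly regained. Vegfa went from its Day 0.25 values to 367, 337 and 420 (log2 0.88 ± 0.11, adjusted p = 1.09e-05), and Bnip3 to 716, 722 and 674 (log2 0.54 ± 0.10, adjusted p = 0.000527). All Day 1 arrays of both lay above all Day 0.25 arrays. The other Vegfa probe set, 1451959_a_at, went from a level of 180 to 235, against 362 on Day 0, and was not called. For Ndrg1, 1456174_x_at went to 1312, 1219 and 1637, which did not pass (log2 0.45 ± 0.17, adjusted p = 0.0513), but its other 4 probe sets rose, by log2 0.49 to 0.77 (adjusted p 7.1e-05 to 0.0393). The Ndrg1 probe set 1420760_s_at went from 677, 689 and 695 to 1187, 1144 and 1173, clear of each other. Egln3 rose to 321, 289 and 334 (log2 0.91 ± 0.12, adjusted p = 1.74e-05, but 0.13 with linear values), and Egln1 fell to 348, 385 and 360 (log2 -0.24 ± 0.08, adjusted p = 0.0306). The Egln1 call was lost in a fit of those 6 arrays alone (adjusted p = 0.103), after quantile normalization (0.101) and without any of 4 single arrays (Day 0.25 replicates 2 and 3, Day 1 replicates 1 and 3). On the other Egln1 probe set, 1451110_at, the level went from 295 to 294. Read from the probe set with the highest mean, 3 of the 8 genes were higher and 1 lower, where 26.4% of all genes changed, 12.3% upward and 14.1% downward. Directly between Day -1 and Day 0.25, a comparison chosen after the values were seen, Vegfa was lower (log2 -0.46 ± 0.11, adjusted p = 0.00689). No other of the 8 genes passed on the probe set with the highest mean, although 4 including Vegfa had an unadjusted p under 0.05, and 17.3% of all genes passed. Of the other Ndrg1 probe sets, 1420760_s_at fell from 1101, 1109 and 984 to the 677 to 695 above (log2 -0.63 ± 0.11, adjusted p = 0.000562) and 1450976_at fell by 0.35 on the log2 scale (adjusted p = 0.0207). The Vegfa call was lost in a fit of those 6 arrays alone (adjusted p = 0.0725) and with linear values (0.137). On the other Vegfa probe set, 1451959_a_at, the level went from 234 to 180, which was not called.

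From Day 1 to Day 2, Egln3 and P4ha1 rose and Pdk1 fell. Egln3 went to 771, 822 and 736, or 2.47-fold up (log2 1.30 ± 0.12, adjusted p = 1.43e-07), with its other probe set at log2 1.22. P4ha1 went from 764, 773 and 714 to 1033, 950 and 974 (log2 0.39 ± 0.09, adjusted p = 0.0018), with its other probe set at log2 0.54 (adjusted p = 0.0086). Neither gene had overlapping arrays. Pdk1 went from 262, 249 and 303 to 189, 112 and 192 (log2 -0.76 ± 0.25, adjusted p = 0.0167), and this call was lost without Day 1 replicate 3 (adjusted p = 0.0556) or Day 2 replicate 2 (0.0935). Its other tested probe sets did not follow, at log2 0.03 and 0.44 (adjusted p = 0.92 and 0.0804). Of the 8 genes 2 were higher and 1 lower, and of all genes 44.9% changed, 23.5% upward and 21.4% downward. Vegfa shows a split here, at log2 0.02 on 1420909_at and 0.54 on 1451959_a_at (adjusted p = 0.886 and 0.00938). Egln1 was split too, with a level that went from 365 to 390 on 1423785_at and from 294 to 214 on 1451110_at (log2 -0.45, adjusted p = 0.00583). For Ndrg1, 1423413_at went from a level of 461 to 348 without overlap of the arrays, while 1456174_x_at, from 1389 to 1320, was not called.

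Later changes were fewer. Vegfa reached 565, 563 and 534 on Day 3, above all Day 2 arrays (log2 0.55 ± 0.11, adjusted p = 0.00747). Egln3 reached 1042, 1120 and 1273 (log2 0.56 ± 0.12, adjusted p = 0.00991), a call lost in a fit of those 6 arrays alone (adjusted p = 0.0626) and without Day 2 replicate 3 (0.0575) or Day 3 replicate 3 (0.0691). These 2 of 8 genes changed where 6.50% of all genes did, 3.21% upward and 3.29% downward. Between Day 3 and Day 4, and again between Day 4 and Day 5, limma called none of the 8, with 1 at an unadjusted p under 0.05 in each, Egln1 and then P4ha1, while 0.999% and 3.72% of all genes passed. Over Day 2 to Day 5 together, Vegfa rose 1.96-fold (log2 0.97 ± 0.11, adjusted p = 1.98e-06), Egln3 1.44-fold (adjusted p = 0.0018) and P4ha1 1.26-fold (adjusted p = 0.00822), and Egln1 fell 1.19-fold (adjusted p = 0.0167). These 3 higher and 1 lower compare with 12.5% and 21.5% of all genes, 33.9% in all. The other P4ha1 probe set, 1426519_at, went from a level of 651 on Day 2 to 693 on Day 5, with overlapping arrays. In a fit of Day 2 and Day 5 alone the calls of P4ha1 (adjusted p = 0.163) and Egln1 (0.209) were lost, and that of Egln1 also when replicate 1 (0.0576) or 3 (0.058) of Day 2 or replicate 3 of Day 5 (0.0851) was left out.

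From the growing myoblasts of Day -1 to the myotubes of Day 5, the oxygen sensor genes parted. Egln3 rose 8.51-fold (log2 3.09 ± 0.12, adjusted p = 1.78e-14), from 135, 122 and 138 to 1251, 985 and 1139, while Egln1 fell 1.33-fold (log2 -0.41 ± 0.08, adjusted p = 0.000106), from 411, 467 and 430 to 335, 345 and 301. The other Egln1 probe set, 1451110_at, fell too, from a level of 345 to 169 (log2 -1.03 ± 0.12, adjusted p = 2.67e-07). The other Egln3 probe set, 1418648_at, had levels of 48.8 and 432, and as its later levels alone brought it into the test, its values are a description. Vegfa rose 2.68-fold (log2 1.42 ± 0.11, adjusted p = 6.66e-10) to 730, 828 and 676, its highest level. P4ha1 rose 1.73-fold (log2 0.79 ± 0.09, adjusted p = 1.81e-07) and Bnip3 1.26-fold (log2 0.33 ± 0.10, adjusted p = 0.00537), the latter not in a fit of those 6 arrays alone (adjusted p = 0.0782). Ndrg1, Hif1a and Pdk1 did not pass. The 4 higher and 1 lower genes compare with 70.0% of all genes, 31.6% upward and 38.4% downward, and the median log2 change was 0.26 for the 8 genes and -0.08 for all genes. By level Vegfa was lowest on Day 0.25, at 202, followed by Day -1 at 279, Day 1 at 375, Day 2 at 379 and Day 0 at 422, and then by Day 3 at 554, Day 4 at 647 and Day 5 at 745. In that order the arrays of Days 1 and 2 overlapped, as did those of Days 2 and 0 and of Days 4 and 5.

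Adm and Ankrd37 lay below the level needed for the test, and their later levels went apart, Adm upward from near background and Ankrd37 downward. Adm (1416077_at) read 3.39, 3.32 and 3.49 on Day -1 and stayed under 5 until Day 1, then read 13.4, 11.4 and 15.1 on Day 2 and 50.4, 111 and 68.3 on Day 5. Its arrays spread widely late, at 55.7, 24.3 and 8.51 on Day 4. Ankrd37 (1436538_at) read 48.6, 54.3 and 27.8 on Day 1 and 13.0, 14.0 and 11.3 on Day 2, and stayed at or below a level of 13 afterwards. As its Day -1 to Day 1 values lie near the floor, the size of the Adm change was not measured, and no fold is given. In a fit without a level filter Ankrd37 was lower on Day 2 than on Day 1 (log2 -1.72 ± 0.33, adjusted p = 0.00129), and that fit did not call its step into Day 0 (adjusted p = 0.602) or out of it (0.582).

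Probe sets of a gene did not always agree. For Hif1a, 1448183_a_at fell from 474, 610 and 531 on Day -1 to 340, 312 and 247 on Day 5 (log2 -0.85 ± 0.18, adjusted p = 0.000392), whereas 1427418_a_at and 1416035_at differed by log2 -0.11 and -0.01 (adjusted p = 0.603 and 0.947). Pdk1 diverged most. Between the same days 1423748_at went from a level of 144 to 65.8 and 1435836_at from 80.1 to 138, each above 100 on a single side, and 1423747_a_at, the probe set with the highest mean, differed by 0.00 (interval -0.51 to 0.52). No direction over the time course was therefore given for Pdk1. Which transcripts each probe set reads was not analysed here.

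**Figure D2:**
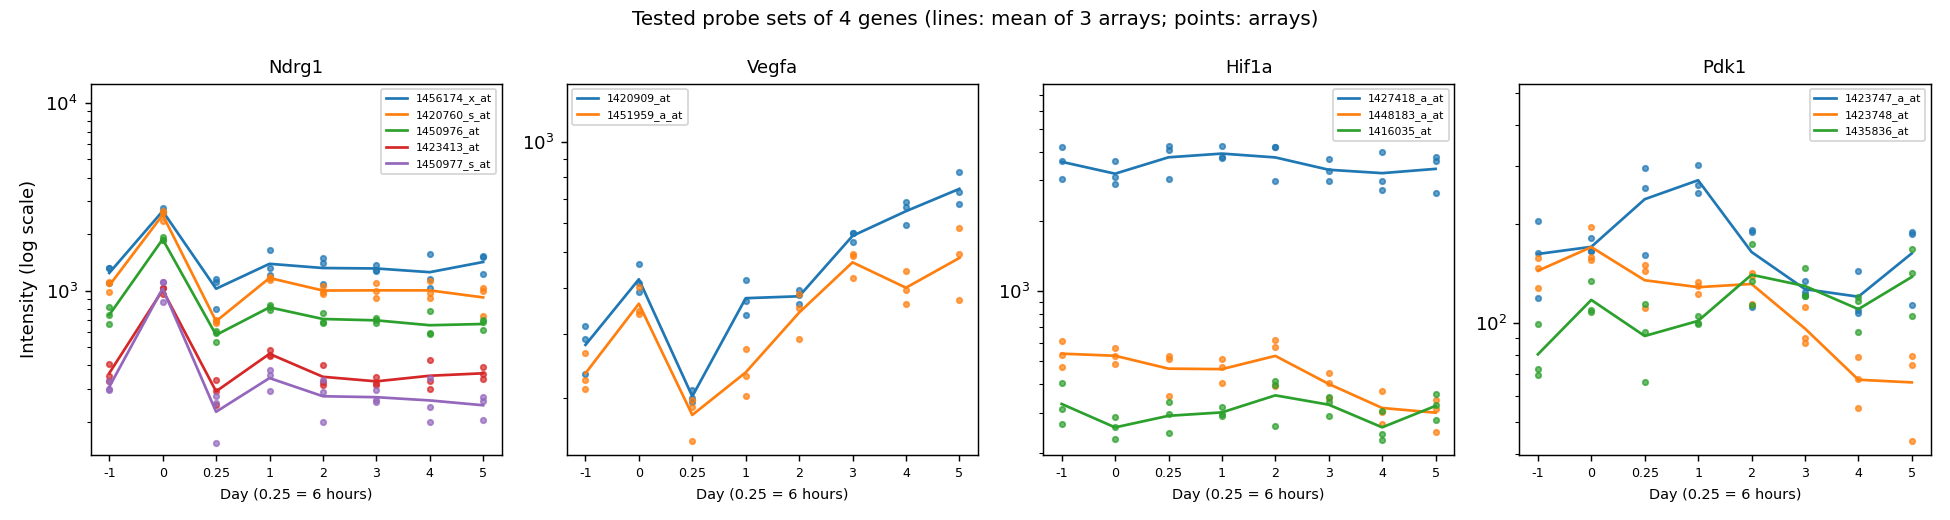
Intensity on a log scale of the tested probe sets of Ndrg1, Vegfa, Hif1a and Pdk1 by time point, with points for arrays and lines for the mean of 3 arrays. The 5 Ndrg1 lines run in parallel with a peak on Day 0, and the 3 Pdk1 lines cross, ending at levels of 163, 65.8 and 138 on Day 5.

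The rest of the oxygen-sensing machinery was read from a list of 17 genes, 13 of them tested. Into Day 0, 5 rose and 3 fell, where 46.8% of all genes changed. Siah1a, a ubiquitin ligase, rose by log2 0.75 (adjusted p = 6.66e-07), Os9 rose by 0.56 (adjusted p = 0.00228), and the coactivator genes Ep300 and Crebbp fell by 0.71 and 0.48 (adjusted p = 1.5e-05 and 0.000913). By Day 0.25, 2 rose and 4 fell, beside 45.1% of all genes, with Siah1a at log2 -0.42 (adjusted p = 0.000603) and Ep300 at 0.30 (adjusted p = 0.0241). Over Day -1 to Day 5, 7 rose and 3 fell, which is near the 70.0% of all genes that changed. Hif1an, the asparaginyl hydroxylase that blocks HIF, rose by log2 1.02 (adjusted p = 0.000279). Epas1, which encodes the other main oxygen-regulated HIF subunit, had a level of at most 2.10, while Arnt, the constant partner of both, lay between 199 and 321.

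Other textbook HIF targets did not share a course. Of 14 tested targets in glucose and energy metabolism, 2 rose and 3 fell into Day 0, and 1 fell by Day 0.25. Slc2a1, the main glucose transporter gene of growing cells, had levels of 4159, 2686 and 2786 on Day -1, Day 0 and Day 0.25, and fell into Day 0 (log2 -0.63, adjusted p = 0.00119), where Ndrg1, Vegfa and Bnip3 rose. The glycolytic gene Pgam1 fell as well (log2 -0.41, adjusted p = 0.0042), and Gys1, glycogen synthase, rose (log2 0.43, adjusted p = 0.00305). By Day 5, 9 of the 14 were below Day -1 and 2 above, beside 38.4% and 31.6% of all genes, with a median log2 change of -1.19, against -0.08 over all genes. Of 21 tested targets outside glucose metabolism, 5 rose and 5 fell into Day 0, and 5 rose and 7 fell by Day 0.25. Ero1a, an oxidase of protein folding, followed Ndrg1 and Vegfa, with levels of 406, 760 and 213 (log2 0.91 and then -1.84, adjusted p = 0.000192 and 7.15e-08). Vldlr, a lipoprotein receptor gene, had levels of 4.62, 198 and 4.62, near background on both sides of Day 0, so that the size of its change was not measured. Tfrc, the transferrin receptor gene, ran the other way at 1897, 642 and 1606 (adjusted p = 4.17e-07 and 4.75e-06). As the members and these lists were drawn from the same pathway, the counts are descriptions beside the 46.8% and 45.1% of all genes.

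The partners of single members were examined in the same way, and their counts over Day -1 to Day 5 stand beside 70.0% of all genes that changed, 31.6% upward and 38.4% downward. Of the receptors for the Vegfa product, Flt1 and Kdr had levels of at most 4.56 and 1.48 at every time point. Ramp2 and Ramp3, receptor components for the Adm product, and their sister gene Ramp1 had levels of at most 2.50. The coreceptor genes Nrp1 and Nrp2 were present and rose over Day -1 to Day 5 (log2 1.40 and 1.48, adjusted p = 1.74e-05 and 4.87e-06), and Ackr3, a scavenger receptor gene, fell (log2 -3.11, adjusted p = 1.13e-12). Of the 8 tested genes of this list 4 rose and 2 fell. Around pyruvate dehydrogenase, 6 of 8 tested genes rose and 1 fell over the same days. The phosphatase gene Pdp1, whose product opposes that of Pdk1, rose by log2 1.99 (adjusted p = 4.6e-11), and Pdk3 fell by 2.01 (adjusted p = 1.35e-11). At confluence Pdp1 rose (log2 0.87, adjusted p = 2.72e-05) and by Day 0.25 it fell (log2 -0.72, adjusted p = 0.000224). The kinase gene Pdk4 had levels of 78.8, 30.3 and 113 on Day -1, Day 0 and Day 0.25 and of 294 on Day 5, in part below the level of 100. Among 9 tested genes of collagen modification beside P4ha1, 4 rose and 3 fell over Day -1 to Day 5. Plod2, a lysyl hydroxylase gene, rose by log2 1.56 (adjusted p = 8.11e-08), and P4ha2, the sister gene of P4ha1, fell by 0.42 (adjusted p = 0.000796).

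As the labels give a medium renewal every 2 days, the days from 2 to 5 were also searched for an alternation. The contrast, chosen after the values were seen, sets Days 3 and 5 against Days 2 and 4 and removes a linear and a quadratic trend. By limma none of the 8 genes passed, with 2 at an unadjusted p under 0.05 (Egln1 at log2 0.15 and P4ha1 at log2 0.18, adjusted p = 0.759 and 0.758), where 10 of 7909 genes, or 0.126%, did. For Vegfa the difference was log2 0.08 with an interval of -0.11 to 0.26, and for Ndrg1 log2 0.09 with an interval of -0.18 to 0.37. Of the 14 immediate early and serum response genes, 4 were higher on Days 3 and 5, among them Egr1 (log2 1.36, adjusted p = 3.24e-06). Another, Fos, had levels of 45.4, 89.9, 21.1 and 161 on Days 2, 3, 4 and 5, above 100 on Day 5 alone. The summed level of that list was 9927, 12599, 9112 and 13493 on Days 2, 3, 4 and 5. None of the 14 and 21 tested HIF targets of the other 2 lists passed.

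**Figure D3:**
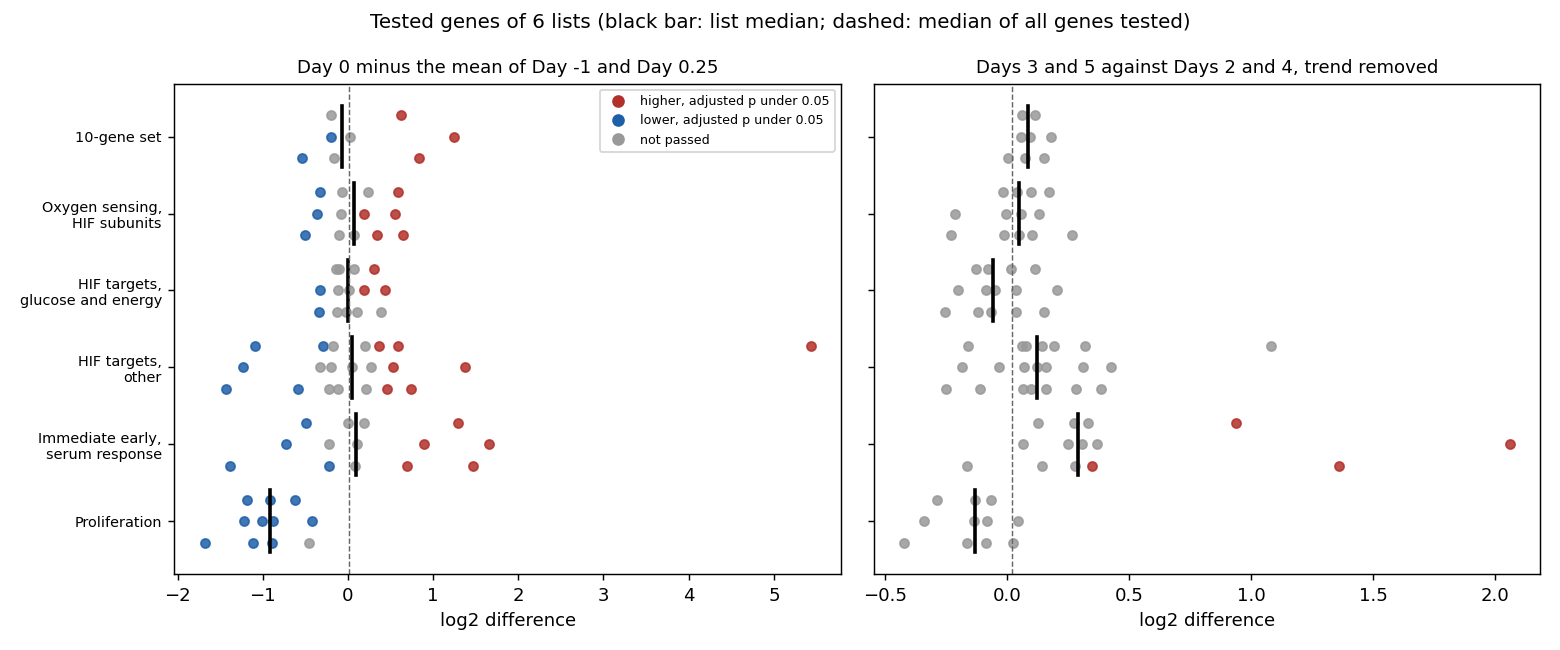
Log2 difference of each tested gene (points) of 6 lists for Day 0 minus the mean of Day -1 and Day 0.25 (left) and for Days 3 and 5 against Days 2 and 4 with trend removed (right), red where higher and blue where lower at an adjusted p under 0.05, with a black bar at the list median and a dashed line at the median of all genes. On the left the hypoxia-inducible genes and the other HIF targets spread to both sides, and on the right coloured points appear among the immediate early genes and in no other list shown.

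For each of the 8 tested members the gene of the closest course was sought by Pearson's r over the 8 log2 means, among 3466 genes with a 2-fold range. Egln3 was matched by Plaat3 (r = 0.996), Bnip3 by Septin8 and P4ha1 by Tgfbr3 (r = 0.989 each), Ndrg1 by Hacd4 (r = 0.980) and Vegfa by Mtres1 (r = 0.974). The other matches were looser, Egln1 with Camsap2 (r = 0.963), Pdk1 with Cotl1 (r = 0.937) and Hif1a with Ier5l (r = 0.918), and Hif1a itself ranged over only 0.30 on the log2 scale. Among the 8 tested members, r was highest between Egln3 and P4ha1 (0.945) and next between Vegfa and P4ha1 (0.856), and Ndrg1 had its highest with Bnip3 (0.628). These values rest on 8 points from the same arrays and are descriptions.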

How the data were processed

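RNA of 24 C2C12 samples was measured on Affymetrix mouse 430 version 2 arrays, and groups and replicate numbers were taken from the labels. By the methods of the paper, the deposited intensity of each probe set is a GC-RMA value that the authors exponentiated and brought to a common trimmed mean per array. The submitters' processing notes name GCRMA and MAS5, with no version or role. GC-RMA sets dim probe sets near a common floor, so changes of genes below a level of 100 are poorly measured, and the scaling hides any change of total RNA. The number of arrays, 3 per time point, limits the precision.

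Log2 intensities were fitted with limma 3.58.1 in R 4.3.3, with 8 means over 24 arrays, for the 13766 probe sets whose level reached 100 at any time point, and p-values were adjusted within each comparison by Benjamini-Hochberg over all of them at a threshold of 0.05. Of 45101 probe sets, 34958 had 1 gene and 932 had several, and those with several or none were named for no gene. The fit was tested on simulated data. The genes named beside the members were, in each list, up to 4 per interval by lowest adjusted p, 2 in each direction, and for each tested member the gene with the highest r over 8 means. Epas1, Arnt, Flt1, Kdr, Ramp1, Ramp2 and Ramp3 were named beside these for their role, after their values were seen. The members and lists were chosen with earlier results of these data known. Alternatives were the replicate number as a block, fits of the compared arrays alone, quantile normalization, linear values, a minimum level of 200 or none, a floor of 50, an intensity trend, the probe set with the highest absolute t, and leaving out each array. Promoter sequences are from RefSeq (GRCm38.p6).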

Additional observations from a re-analysis of the deposited data

How the results depend on the processing

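Counts of the 8 tested genes called in a comparison gave 361 values under the alternatives, of which 343 were within 1.5 times the reported count. From Day 1 to Day 2 the count of 3 became 5 of 10 genes with no level filter and 6 with the probe set of the highest absolute t. Over the 3 single-day intervals after Day 2 together, the count of 2 became 1 in separate fits. For Day 2 against Day 5 the count of 4 became 2 in separate fits. For Day -1 against Day 0.25 the count of 1 became 0 in separate fits and with linear values, and 2 with the highest absolute t. Leaving out each array in turn gave 3 to 5 from Day -1 to Day 0, with 3 without Day -1 replicate 3, where Egln1 and Egln3 were lost. It gave 1 to 3 over the 3 late intervals, with 1 without Day 2 replicate 3 or Day 3 replicate 3, and 1 to 2 from Day -1 to Day 0.25, with 2 without Day -1 replicate 2, Day 0 replicate 2, Day 0.25 replicate 2, Day 4 replicates 2 and 3 or any Day 5 replicate. Of 3168 values for single genes, 3094 kept direction and side of the threshold, 35 lost and 36 gained a call, and 3 turned, all with the probe set of the highest absolute t. These were Egln1 between Days 1 and 2 at log2 -0.45 (adjusted p = 0.00583), Pdk1 from Day -1 to Day 5 at log2 -1.17 (adjusted p = 1.61e-05) and Pdk1 on Day 0 against Day -1 and Day 0.25 at log2 0.48 (adjusted p = 0.0295), each read from another probe set than the reported one. Where no value shows it, the cause was not tested. The labels do not say whether arrays of the same replicate number are paired, and the values did not settle it. Deviations of same-numbered neighbouring arrays had an r of -0.513 to 0.554, over 0.1 in 12 of 21 pairs, and 9 arrays lay closest to the one of their own number. With the replicate number as a block the counts stayed at 5, 4, 4, 3 and 2 for the intervals in order (late intervals together), 4 for Day 2 against Day 5, 5 for Day -1 against Day 5, 5 for Day 0 against its neighbours, 1 for Day -1 against Day 0.25, 0 for the alternation and 7 for any change. Signal near the background limits what can be said of Adm and Ankrd37.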
